A study of Mus musculus with 21 samples.

Results

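The immunoglobulin constant genes and the J chain were followed in the podocyte fraction of young and middle-aged mice. The 10 genes were chosen by symbol, with earlier results of these data known. They were 7 heavy chain constant genes (Ighm, Ighd, Ighg1, Ighg2b, Ighg2c, Ighg3 and Igha), the light chain constant genes Igkc and Iglc1, and Jchain. All 10 were among the 27179 genes counted in each of the 21 libraries, and all 10 passed the filter on low counts that left 16377 genes for testing. The variable, joining, diversity and remaining immunoglobulin rows numbered 482 and were used only as sums.

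Every mouse was a male wildtype C57BL/6J animal, and each library came from the cortex cells that 2 rabbit antibodies to nephrin and magnetic beads retained. The 6 young mice were 4 months old and untreated. The 7 saline mice received saline alone by intraperitoneal injection for 6 weeks from 18 months of age and were 19.5 months old at the end. The 8 NLRP3i mice received 10 mg/kg MCC950, an inhibitor of the NLRP3 inflammasome, in saline over the same weeks and were of the same age. The young mice thus differed from the saline mice in age and also in receiving no injections. The study also lists its 4-month control mice as archived material, while the experimental mice were obtained at 18 months of age. The effects of age, of injection and of any difference in cohort cannot be told apart.

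Each B cell carries antibody of 1 specificity, and its heavy chain constant region sets the isotype. IgM and IgD come from the same unswitched transcript in resting B cells, and class switching replaces them with IgG or IgA. Each heavy chain pairs with a kappa or a lambda light chain, and plasma cells, the antibody-secreting descendants of B cells, hold far more immunoglobulin mRNA than resting B cells do. The J chain is the small polypeptide that links IgM and IgA monomers into polymers, which the polymeric immunoglobulin receptor carries across epithelia.

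Short parts of the heavy chain genes carry some of the features that differ between these products. The hinge joins the antigen-binding arms to the tail, and its cysteines join both heavy chains. The hinge exons of the 4 IgG genes are shown because they differ in length and in cysteine codons. They are read 5′ to 3′ from GENCODE M21 transcripts on GRCm38, and all lie on the minus strand. Their places are chr12:113329844-113329882 for Ighg1, chr12:113307261-113307326 for Ighg2b, chr12:113288263-113288325 for Ighg2c and chr12:113360529-113360576 for Ighg3. Capitals mark the cysteine codons, of which Ighg1 and Ighg2b have 4 each, Ighg2c has 3 and Ighg3 has 1.
Ighg1: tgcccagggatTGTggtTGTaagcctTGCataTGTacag
Ighg2b: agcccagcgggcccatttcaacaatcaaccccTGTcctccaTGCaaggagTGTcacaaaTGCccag
Ighg2c: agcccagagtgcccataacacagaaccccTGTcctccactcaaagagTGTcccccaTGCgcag
Ighg3: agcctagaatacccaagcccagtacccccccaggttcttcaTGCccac

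The coding ends of the secreted forms are shown because they decide which isotypes can carry a J chain. The last 18 codons and the stop codon lie at chr12:113420867-113420923 in Ighm, chr12:113258768-113258824 in Igha and chr12:113328976-113329032 in Ighg1, all on the minus strand. Capitals mark the cysteine codon next to last in the secreted tails of IgM and IgA, the residue to which the J chain can be bonded. The IgG1 end has no cysteine codon in this stretch.
Ighm: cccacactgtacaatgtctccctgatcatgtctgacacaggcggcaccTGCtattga
Igha: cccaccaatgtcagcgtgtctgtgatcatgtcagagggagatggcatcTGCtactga
Ighg1: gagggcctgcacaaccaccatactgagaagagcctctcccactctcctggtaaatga

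The counts add secreted and membrane forms of a gene. Sharing of sequence was examined as exact words of 50 bases in a single transcript of each gene. Ighg2b and Ighg2c shared 56 words with each other, 5.26% and 5.27% of the words of those transcripts. The transcripts of the remaining members shared none with any other GENCODE gene. Exons outside these transcripts and inexact matches were not examined. How reads with several alignments were handled is not given in the sources used here, so the split between Ighg2b and Ighg2c is uncertain to an unknown extent.

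Total counts per library ran from 27375870 to 36827823 in young, from 45772937 to 84876399 in saline and from 35440472 to 58247271 in NLRP3i libraries, so each saline library exceeded all young ones in depth. Mitochondrially encoded genes accounted for a median of 71.1% of counts in young, 68.6% in saline and 57.5% in NLRP3i libraries. Levels below are in CPM, counts relative to library size after TMM scaling. The 15 podocyte markers were all detected, with a summed level of 868 to 1911 CPM in young, 333 to 628 in saline and 449 to 749 in NLRP3i libraries. B cell markers were detected in every group as well.

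Immunoglobulin mRNA was a small share of the young podocyte fraction and a substantial one in saline mice. The 10 genes took from 0.0966% to 0.316% of the counts outside the mitochondrial genome in young libraries, with a median of 0.134%. In saline libraries they took from 2.22% to 3.13%, with a median of 2.38%. In NLRP3i libraries the share ran from 0.469% to 3.49%, with a median of 0.895%, so the treated mice ran from just above the young range to above the saline range. The tissue was measured in bulk, so more cells of a type and more RNA per cell cannot be told apart.

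**Figure D1:**
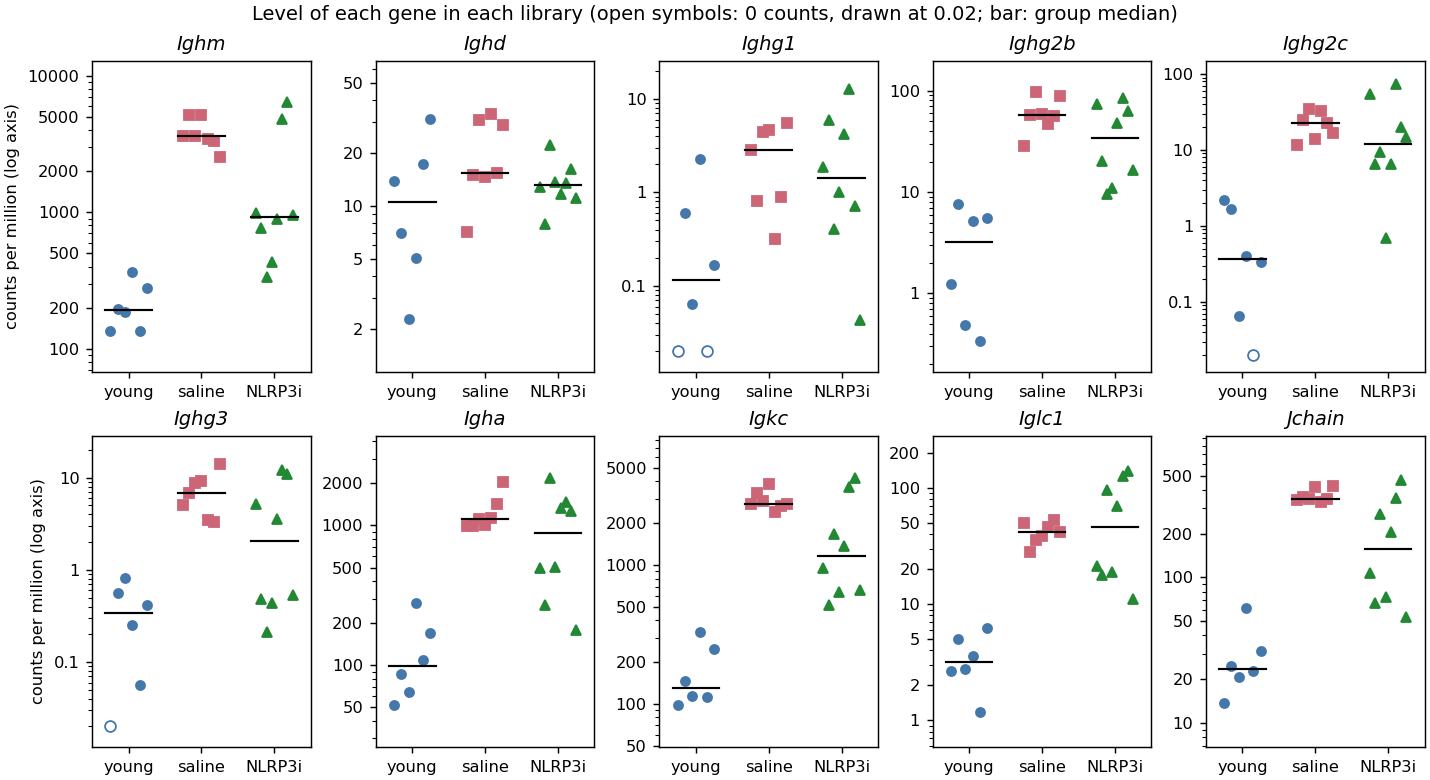
CPM of each of the 10 genes in each library on a log axis, by group; bars are group medians and open symbols are libraries with 0 counts. In 8 of the 10 genes all saline libraries lie above all young libraries, while the NLRP3i libraries spread over most of the range.

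The comparison of saline with young mice asked what middle age changes in these fractions. With edgeR's quasi-likelihood test (adjusted p under 0.05), 8 of the 10 genes were higher in saline libraries, while none went down, beside 12.2% of all genes tested that were called higher and 12.4% lower. The median log2 fold change of the 10 was 3.86, beside 0.02 for all genes tested. In the same 8 genes the groups did not overlap, which was so for 4.51% of all genes in the upward direction.

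Ighm, the constant region of IgM, was the most abundant heavy chain in reads. It ranged from 135 to 362 CPM in young libraries, with a median of 191, and from 2542 to 5138 CPM in saline libraries, with a median of 3646. The lowest saline library was thus well above the highest young one. The log2 fold change was 4.15 ± 0.64 (SE), 17.8-fold, with an adjusted p of 0.000111.

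Igha, the constant region of IgA, ranged from 52.1 to 279 CPM in young libraries (median 98.1) and from 995 to 2044 CPM in saline libraries (median 1107). Again no saline library reached down to the young range. The increase was 3.30 ± 0.53 on the log2 scale (adjusted p 0.00017).

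The IgG genes were far rarer, with few reads in young libraries. Ighg2b was the leading IgG gene, with 0.337 to 7.56 CPM in young (median 3.19) and 28.5 to 97.8 CPM in saline libraries (median 57.7). Its log2 fold change was 4.18 ± 0.67 (adjusted p 0.000164). Ighg2c, the IgG2a-like gene that C57BL/6 mice carry, rose from a median of 0.368 CPM in young, where 1 library held no read, to 22.8 CPM in saline libraries. Its log2 fold change was 4.70 ± 0.88 (adjusted p 0.000659).

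Ighg3 was the third IgG gene that rose, from a median of 0.337 CPM with at most 25 reads in a young library to 6.73 CPM in saline libraries (log2 fold change 4.34 ± 0.96, adjusted p 0.00246). Ighg1 did not pass the test, with an adjusted p of 0.102 and a log2 fold change of 2.40 ± 1.06. Its young libraries held 0 to 63 reads and 87 in all, of which young replicate 4 alone held 63. Its saline libraries ran from 0.316 to 5.59 CPM, and 4 of the 7 lay above the highest young library. Without young replicate 4 the log2 fold change was 4.00 (adjusted p 0.0242).

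Both light chains rose. Igkc, the kappa constant region, went from 97.9 to 330 CPM in young libraries (median 129.8) to between 2412 and 3814 CPM in saline libraries (median 2767). Its log2 fold change of 4.07 ± 0.50 had the smallest adjusted p of the 10, 1.9e-05. Iglc1, a lambda constant region, ranged from 1.18 to 6.27 CPM in young and from 28.2 to 53.0 CPM in saline libraries, with a log2 fold change of 3.56 ± 0.57 (adjusted p 0.000164).

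Jchain ranged from 13.8 to 62.1 CPM in young libraries (median 23.6). In saline libraries it lay between 328 and 421 CPM (median 346), the narrowest spread of any of the 10 genes in any group, with the highest library at 1.28 times the lowest. On the log2 scale the increase was 3.64 ± 0.49 (adjusted p 3.4e-05).

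Ighd, the constant region of IgD that marks mature naive B cells, stood apart from the rest. It ranged from 2.29 to 31.1 CPM in young libraries (median 10.5) and from 7.17 to 33.3 CPM in saline libraries (median 15.4), and only 1 saline library lay above the young range. The log2 fold change of 0.71 ± 0.43 did not pass the test (adjusted p 0.249). Without young replicate 6, the highest young library, it was 1.18 with an adjusted p of 0.0392.

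**Figure D2:**
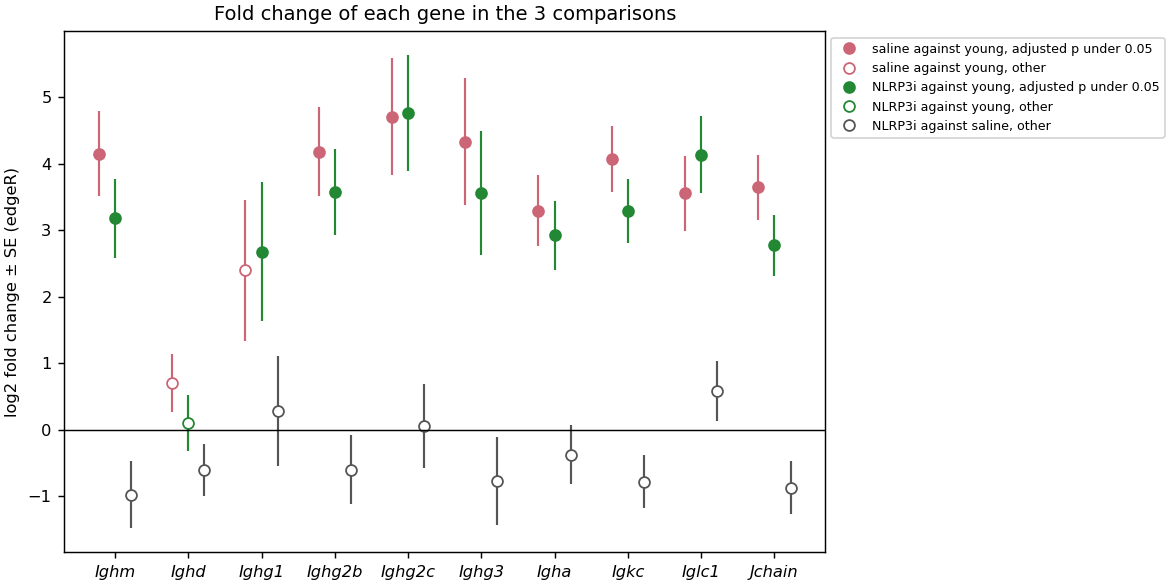
The log2 fold change of each gene with its standard error in the 3 comparisons, from edgeR; filled points have an adjusted p under 0.05. Against young, both middle-aged groups lie between 2.40 and 4.76 in every gene except Ighd, and the NLRP3i against saline values lie between -0.97 and 0.58.

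The comparison of NLRP3i with saline mice asked whether inhibiting NLRP3 changed these levels. With edgeR, 0 of the 10 genes were called in either direction, while 4.86% of all genes tested were called lower and 11.9% higher. At an unadjusted p under 0.05 only Jchain was lower, a threshold that 11.4% of all genes passed in that direction. DESeq2 called 0 and limma-voom 2, Ighm and Jchain, both lower. The shares of all genes called under DESeq2 and limma-voom are not given here, so these counts stand without a background. The median log2 fold change of the 10 was -0.60, with 7 negative and 3 positive, beside 0.00281 for all genes. In none of the 10 genes were the groups free of overlap, where 0.586% of all genes lay wholly lower and 1.15% wholly higher.

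The medians hide how the treated mice differed among themselves. Ighm in NLRP3i libraries ranged from 338 to 6416 CPM with a median of 929, a spread of 19.0-fold, beside 2.02-fold among saline libraries. NLRP3i replicates 1, 2, 3, 4, 5 and 8 lay between 338 and 994 CPM, below the lowest saline library. Replicate 6 held 4826 CPM, within the saline range, and replicate 7 held 6416 CPM, above it. The log2 fold change was -0.97 ± 0.51 with an adjusted p of 0.195.

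Igkc and Jchain divided the treated mice in the same way. Igkc ranged from 516 to 4241 CPM (median 1160), and Jchain from 53.8 to 465 CPM (median 156). In both genes the same 6 libraries lay below all saline libraries, and replicate 7 lay above them all. For Igkc the log2 fold change was -0.78 ± 0.40 (adjusted p 0.186) and for Jchain -0.87 ± 0.40 (adjusted p 0.134).

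In the edgeR fit of all groups, whether these 3 genes were called depended on NLRP3i replicate 7. Without it, edgeR called Ighm (log2 fold change -1.55, adjusted p 0.021), Igkc (-1.13, adjusted p 0.038) and Jchain (-1.18, adjusted p 0.0322) lower. Without replicate 6 edgeR called no member. The call depended on the method too. With replicate 7 kept, limma-voom called Ighm (-1.73, adjusted p 0.0302) and Jchain (-1.31, adjusted p 0.0484) lower, but not Igkc (-1.21, adjusted p 0.072).

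Igha and Iglc1 followed a different order of libraries. Igha ranged from 177 to 2176 CPM in NLRP3i libraries (median 889), with replicates 1, 2, 4 and 8 below all saline libraries and replicate 3 above them. Its log2 fold change was -0.37 ± 0.44 (adjusted p 0.598). Iglc1 ranged from 11.2 to 140 CPM (median 45.8), and no NLRP3i library lay inside the saline range: replicates 1, 2, 4 and 8 were below it and replicates 3, 5, 6 and 7 above it. The log2 fold change was 0.58 ± 0.45 (adjusted p 0.406).

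Ighg1, Ighg2c and Ighg3 had the widest ranges among the treated mice. Ighg1 spanned 0.0428 to 12.7 CPM in NLRP3i libraries, a 297-fold range set at its lower end by 2 reads in replicate 8. Ighg2c spanned 0.694 to 74.1 CPM, 106.8-fold, and Ighg3 0.212 to 12.2 CPM, 57.4-fold. Ighg2b spanned 9.67 to 84.6 CPM, 8.75-fold. Replicate 6 was the highest library in all 4. Their log2 fold changes against saline lay between -0.77 and 0.28, with adjusted p-values of 0.452 to 0.963. Ighd had the narrowest range among the treated mice, from 7.88 to 22.2 CPM, 2.82-fold, with a log2 fold change of -0.60 ± 0.39 (adjusted p 0.307).

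Set against young mice, the NLRP3i mice were higher in 9 of the 10 genes and lower in 0 (edgeR, adjusted p under 0.05), where 21.8% of all genes were called higher and 16.5% lower. The median log2 fold change was 3.23, beside 0.08 for all genes. Groups did not overlap in 3 genes, Ighg2b, Igkc and Iglc1, which was so for 3.28% of all genes. The largest fold change was that of Ighg2c at 4.76 ± 0.87 (adjusted p 0.000308) and the second that of Iglc1 at 4.14 ± 0.58 (adjusted p 2.28e-05). Under limma-voom Ighg2c (adjusted p 0.127), Ighg3 (0.184) and Ighg1 (0.251) were not called. Ighm gave 3.18 ± 0.60 (adjusted p 0.000388), Igkc 3.29 ± 0.48 and Jchain 2.77 ± 0.46. Ighg1 was called at 2.68 ± 1.04 with an adjusted p of 0.0474, which was 0.0509 with RLE size factors and over 0.05 in 15 of the 21 settings that left out 1 library. Ighd, at 0.10 ± 0.42, did not pass (adjusted p 0.869). The young, the saline and the NLRP3i mice each serve in 2 of the 3 comparisons, so the comparisons are not independent of each other.

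Levels between genes can be compared only per length. Per kb of GENCODE exon, Igkc led in every group, with a median of 244 CPM per kb in young, 5201 in saline and 2180 in NLRP3i libraries. Ighm followed with 101.3, 1933 and 492 CPM per kb, then Igha with 36.8, 415 and 333. Ighg1 was the lowest in each group, at 0.0447, 1.11 and 0.552. The annotation used for counting is not given in the sources used here, and with exon length limited to the RefSeq span of each gene the order of Ighm and Igha turned over in NLRP3i libraries, at 574 and 687 CPM per kb. Differences between these neighbours in NLRP3i mice did not exceed their spread, since the ratio of Ighm to Igha reads there ran from 0.155 to 5.42.

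The isotype make-up was then compared as shares of reads, with 11 quantities in 3 comparisons and an exact two-sided permutation test for each, adjusted over all 33. The smallest p that the number of libraries allows was 0.000583 for saline against young, 0.000155 for NLRP3i against saline and 0.000333 for NLRP3i against young. After adjustment 2, 1 and 2 quantities differed. Intervals on single shares are 95% Wilson intervals and cover counting error only.

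IgM and IgA made up nearly all heavy chain reads in every group. Ighm took 51.6% to 73.2% of heavy chain reads in young (mean 61.5% ± 8.07, SD, n = 6), 53.6% to 82.4% in saline (73.1% ± 9.93, n = 7) and 13.2% to 82.3% in NLRP3i libraries (58.3% ± 24.3, n = 8). None of the 3 differences passed the adjusted exact permutation test. Saline exceeded young by 11.6 percentage points (p = 0.0478, adjusted 0.263, exact permutation test), and without saline replicate 7 by 14.8 points with an adjusted p of 0.0275. NLRP3i lay under saline, at -14.8 points (p = 0.161, adjusted 0.387, exact permutation test), which was -8.32 without NLRP3i replicate 3 and -8.10 as a difference of medians.

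Igha took 25.3% to 42.6% in young, 15.9% to 43.1% in saline and 15.0% to 85.1% in NLRP3i libraries. In NLRP3i replicate 3, IgA was the main isotype, with 85.1% of heavy chain reads (interval 84.9% to 85.3%) against 13.2% for Ighm. Igha also exceeded Ighm in replicates 4 and 5, at 52.7% and 57.8%. In every young and every saline library Ighm exceeded Igha. The saline library nearest to the reverse was replicate 7, with 53.6% Ighm and 43.1% Igha. These shares are of reads and not per length. Per kb of GENCODE exon Igha exceeded Ighm in NLRP3i replicates 3 and 5 but not 4, at ratios of 4.56, 1.05 and 0.837. With exon length inside the RefSeq span it also exceeded Ighm in young replicate 5, at 1.01, and in saline replicate 7, at 1.01.

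**Figure D3:**
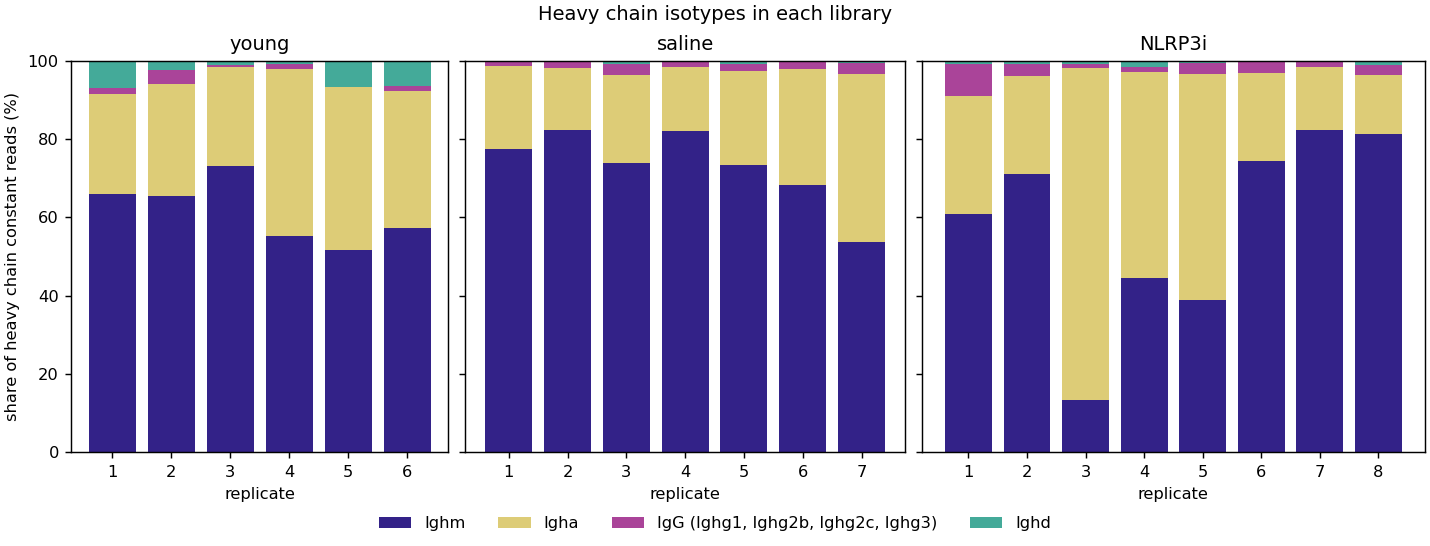
Share of heavy chain constant reads taken by Ighm, Igha, the 4 IgG genes together and Ighd in each library, by group and replicate. Ighm is the larger share in all young and saline libraries, and Igha exceeds it in NLRP3i replicates 3, 4 and 5.

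IgD had a smaller share of heavy chain reads in middle-aged mice, while its level was called in no comparison. Ighd made up 0.779% to 6.82% of heavy chain reads in young libraries (mean 3.97% ± 2.94, n = 6) and 0.153% to 0.706% in saline libraries (0.413% ± 0.227, n = 7). Every saline library lay below every young one (exact permutation p = 0.000583, the smallest these groups allow, adjusted 0.0192). In NLRP3i libraries Ighd made up 0.207% to 1.41% (0.71% ± 0.401, n = 8), also under the young mean (exact permutation p = 0.00466, adjusted 0.0308). This second call was lost in 8 of the 14 settings that left out 1 library, with adjusted p-values up to 0.0718, and per kb of exon (adjusted p 0.0623). The young libraries themselves fell into low and high values, with 3 between 0.779% and 2.34% and 3 between 6.41% and 6.82%.

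IgG stayed a minor class. The 4 genes together took 0.149% to 3.45% of heavy chain reads in young, 1.03% to 2.95% in saline and 0.772% to 8.23% in NLRP3i libraries. The difference of means was 0.44 points between saline and young (adjusted p 0.594, exact permutation test) and 1.02 points between NLRP3i and saline (adjusted p 0.577, exact permutation test). Without single libraries the first ran from 0.19 (young replicate 5) to 0.85 (young replicate 2), and the second fell to 0.26 without NLRP3i replicate 1.

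Within IgG, each subclass share had its narrowest range in saline libraries. Ighg2b took 56.2% to 70.6% of saline IgG reads, Ighg2c 13.6% to 39.1%, Ighg3 3.96% to 11.3% and Ighg1 0.382% to 5.95%. In NLRP3i libraries Ighg2b took 46.1% to 83.6% and Ighg2c 5.33% to 47.8%. Young shares rest on few reads, from 7 in replicate 5 to 313 in replicate 2, and ran from 34.1% to 85.9% for Ighg2b and from 0% to 63.8% for Ighg2c. None of the 12 subclass comparisons passed the exact permutation test after adjustment. The Ighg2c share in saline exceeded that in young mice by 8.80 points, and by 18.4 points with an adjusted p of 0.0313 (exact permutation test) without young replicate 1. The 0 of 7 Ighg2c reads in young replicate 5 cannot set a useful limit on the share.

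The kappa share differed between the treated and the saline mice. Igkc made up 98.1% to 99.2% of Igkc and Iglc1 reads in saline libraries (mean 98.5% ± 0.445, n = 7) and 94.6% to 98.3% in NLRP3i libraries (96.6% ± 1.27, n = 8). The difference of -1.92 points gave an exact permutation p of 0.00171 (adjusted 0.022). NLRP3i replicate 8, at 98.3%, was the only treated library inside the saline range, and replicate 3, at 94.6% (interval 94.4% to 94.7%), was the lowest. The call remained in every setting that left out 1 library, with a highest adjusted p of 0.0352. It also remained with the lambda genes Iglc2 and Iglc3 added (-1.80 points, adjusted p 0.0385). Young libraries held 96.7% to 98.96%, and neither comparison with them passed. With Iglc2 and Iglc3 added, saline mice exceeded young mice by 3.99 points (adjusted p 0.0385, exact permutation test), beside 0.68 without them. The difference between NLRP3i and young mice changed sign, from -1.24 points without them to 2.19 with them (adjusted p 0.298, exact permutation test).

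Light chain reads, counted on Igkc and Iglc1, were more numerous per heavy chain read in both middle-aged groups than in young mice. The log2 ratio of light to heavy chain constant reads was -1.04 ± 0.107 (SD, n = 6) in young, -0.80 ± 0.0895 (n = 7) in saline and -0.74 ± 0.157 (n = 8) in NLRP3i libraries. As ratios, the medians were 0.497, 0.593 and 0.591 light chain reads per heavy chain read. Saline exceeded young by 0.24 (exact permutation p = 0.00233, adjusted 0.022), and NLRP3i exceeded young by 0.30 (exact permutation p = 0.00266, adjusted 0.022). With Iglc2 and Iglc3 counted as well, these differences were 0.19 and 0.25 (adjusted p 0.0385 for each, exact permutation test). Per kb of exon both lost the call, at 0.20 and 0.33 with adjusted p-values of 0.0673 and 0.0923. The second was also not called as a difference of medians (0.25, adjusted p 0.156) or without young replicate 5 (0.27, adjusted p 0.0577). The difference between NLRP3i and saline was 0.06 (adjusted p 0.594, exact permutation test).

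**Figure D4:**
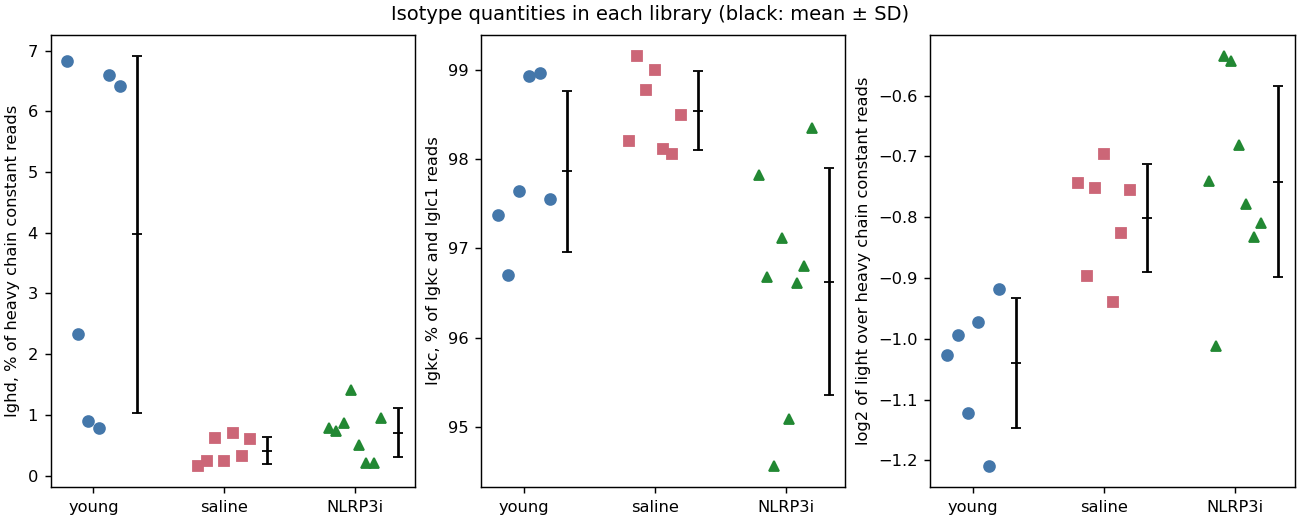
The Ighd share of heavy chain reads, the Igkc share of Igkc and Iglc1 reads and the log2 ratio of light to heavy chain reads in each library, with the group mean and SD in black. By group mean, the Ighd share is highest in young, the Igkc share lowest in NLRP3i, and the light to heavy ratio lowest in young libraries.

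There were 0.0816 Jchain reads per heavy chain read at the median in young, 0.07 in saline and 0.0636 in NLRP3i libraries, and none of the 3 differences in the log2 ratio passed (adjusted p-values 0.387 to 0.818, exact permutation test). The highest ratio, 0.107, was that of NLRP3i replicate 3, the library made up mainly of IgA, and the lowest, 0.0455, that of replicate 8.

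Among the treated mice Jchain and IgA varied together. Over the 8 NLRP3i libraries the log2 CPM of Jchain and Igha gave a Pearson r of 0.91 (exact permutation p = 0.00565, adjusted over 8 relations 0.0452) and a Spearman rho of 0.81 (exact permutation p = 0.0218, adjusted 0.0871). Without the 2 libraries farthest from the median, r was 0.83. With Ighm, r was 0.59 and rho 0.43 (adjusted exact permutation p 0.279 and 0.399), and r was -0.40 without replicates 6 and 7, so that relation rests on them. With summed IgG, r was 0.51 and rho 0.50 (adjusted exact permutation p 0.315 and 0.346). The difference between these correlations was not tested.

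In the 7 saline libraries, where Jchain hardly varied, r was 0.44 with Igha, -0.01 with Ighm and 0.35 with IgG, and rho 0.18, 0 and 0.57 (adjusted exact permutation p-values of at least 0.346). Without the 2 farthest libraries these r values became -0.52, 0.95 and 0.69.

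**Figure D5:**
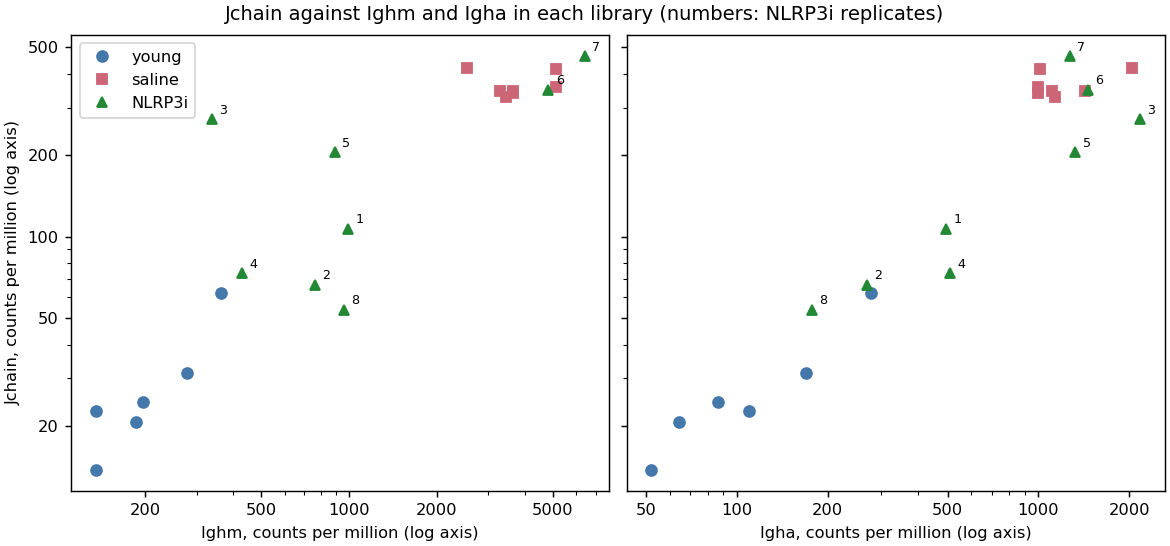
Jchain against Ighm (left) and Igha (right) in CPM on log axes, 1 point per library; numbers mark NLRP3i replicates. In the NLRP3i group, Jchain and Igha have an r of 0.91 and Jchain and Ighm an r of 0.59.

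The levels of Ighd and a B cell receptor gene were compared in the same way. With Cd79b, which encodes a signalling chain of the B cell receptor, Ighd gave an r of 0.77 (adjusted exact permutation p 0.0939) and a rho of 0.95 (adjusted exact permutation p 0.00913) over the NLRP3i libraries, and r was 0.95 without the 2 farthest. Over the saline libraries r was 0.85 (adjusted exact permutation p 0.077) and rho 0.61 (adjusted exact permutation p 0.346), and r was 0.47 without the 2 farthest.

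Summed reads on variable segments, not scaled for depth, were lowest in young libraries. Reads on the 120 Ighv rows summed to 574 to 2918 in young, 27365 to 52565 in saline and 6165 to 68488 in NLRP3i libraries. Per heavy chain constant read this was a median of 0.149, 0.136 and 0.133, and the highest value, 0.186, was that of NLRP3i replicate 3. Reads on the 103 Igkv rows per Igkc read had medians of 0.494, 0.413 and 0.387.

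Across all 21 libraries, the 5 genes outside the immunoglobulin loci whose levels ranked most like the sum of the 10 members were Derl3 (Spearman rho 0.98), Mzb1 (0.96), Slpi (0.96), Txndc5 (0.95) and H4bc24 (0.93). Derl3 and Mzb1 encode proteins of the endoplasmic reticulum that plasma cells hold in quantity, and Txndc5 a protein disulfide isomerase. These values are descriptions over libraries that share the 3 groups. Within the NLRP3i libraries alone rho was 0.93 for Derl3, 0.98 for Mzb1, 0.86 for Slpi, 0.90 for Txndc5 and 0.74 for H4bc24. Within saline libraries these values were 0.57, 0.68, 0.29, 0.54 and 0.39.

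Markers of B cells overlapped widely between the groups. Of 12 B cell markers 1, Cd79b, was higher in saline than in young mice, where 12.2% of all genes tested were called higher. Cd79b gave a log2 fold change of 0.99 ± 0.31 (edgeR adjusted p 0.0222, not called without young replicate 2, 3 or 4). The median log2 fold change of the list was 0.76. The summed level of the list was 39.5 to 289.8 CPM in young, 94.9 to 285 in saline and 81.7 to 307 in NLRP3i libraries. Cd79a, the partner chain of Cd79b, gave 1.01 ± 0.40 (adjusted p 0.0682, and 0.0352 with DESeq2). Without young replicate 6 it was 1.499 (adjusted p 0.00532). Ms4a1, which encodes CD20, gave 0.40 ± 0.39 (adjusted p 0.492). No B cell marker was called between NLRP3i and saline or between NLRP3i and young by edgeR. Of all genes tested, 11.9% were called higher and 4.86% lower against saline, and 21.8% higher and 16.5% lower against young. DESeq2 and limma-voom called Cd79a higher in NLRP3i than in young mice (adjusted p 0.0492 and 0.0257).

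Of 12 plasma cell markers 8 were higher in saline than in young mice and 0 lower, beside 12.2% and 12.4% of all genes tested. The median log2 fold change of the list was 0.84. Mzb1 rose from a median of 1.41 CPM in young, with a highest library of 2.93, to 10.7 CPM in saline, with a lowest library of 8.65. Its log2 fold change was 2.85 ± 0.43 (adjusted p 9e-05). Derl3, of protein quality control, rose by 2.80 ± 0.48 (adjusted p 0.000276) and Tnfrsf17, the BCMA receptor of plasma cells, by 2.27 ± 0.48 (adjusted p 0.00182). Pou2af1, a B-lineage coactivator, rose by 1.27 ± 0.36 (adjusted p 0.0134).

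Against saline, 1 of 12 plasma cell markers was lower in NLRP3i mice, beside 4.86% of all genes tested. It was Sdc1, which encodes CD138, at -0.65 ± 0.16 (edgeR adjusted p 0.0133). Sdc1 is made by epithelia too. Mzb1 gave -0.27 ± 0.34 (adjusted p 0.624). Against young, 5 of 12 were higher in NLRP3i mice, beside 21.8% of all genes tested. Among them were Mzb1 at 2.58 ± 0.42, Derl3 at 2.51 ± 0.47, Tnfrsf17 at 2.25 ± 0.47 and Eaf2, a transcription elongation factor, at 0.97 ± 0.20 (edgeR adjusted p-values up to 0.00103).

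Receptors and carriers of antibody were in part higher in saline than in young mice. Of 11 genes, 4 were higher in saline than in young mice and 0 lower, beside 12.2% and 12.4% of all genes tested. The median log2 fold change of the 11 was 0.65. Pigr, the receptor that carries polymeric IgA and IgM across epithelia, ranged from 40.0 to 63.0 CPM in young and from 82.7 to 132 in saline libraries, a log2 fold change of 1.05 ± 0.16 (adjusted p 8.9e-05). Cd5l, a macrophage protein that binds pentameric IgM, gave 7.94 ± 1.13 (adjusted p 5.67e-05), a value set by 11 reads in all young libraries beside 6391 in saline libraries; limma-voom did not call it. Fcer1g, the signalling chain of several Fc receptors, gave 1.04 ± 0.30 (adjusted p 0.0149), and Fcgr2b, the inhibitory IgG receptor, 0.70 ± 0.23 (adjusted p 0.0322). Fcgr2b was not called without young replicate 1, 2 or 3 or saline replicate 2, 3 or 4 (adjusted p up to 0.0848).

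Between NLRP3i and saline, 1 of 11 receptors and carriers was higher and 1 lower, beside 11.9% and 4.86% of all genes tested. Fcamr, a receptor for IgM and IgA, gave 0.64 ± 0.18 (adjusted p 0.022) and Trim21, an antibody receptor of the cytosol, -0.52 ± 0.15 (adjusted p 0.0202). Fcamr was not called without saline replicate 6 (adjusted p 0.0523). Against young, 5 of 11 were higher and 1 lower in NLRP3i mice, beside 21.8% and 16.5% of all genes tested. Pigr at 1.33 ± 0.16, Cd5l at 7.18 ± 1.13 and Fcer1g at 0.85 ± 0.29 were among the 5. Trim21 was the 1 lower, at -0.52 ± 0.15 (adjusted p-values of the 4 up to 0.0254). Cd5l was not called by limma-voom (adjusted p 0.0869), nor Fcer1g without young replicate 3 (adjusted p 0.0703).

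Of 9 tested signals for B cell survival and recruitment, 2 were higher in saline than in young mice, beside 12.2% of all genes tested. Cxcl13, the chemokine that draws B cells, gave 2.24 ± 0.41 (adjusted p 0.000533) and Tnfrsf13c, the BAFF receptor on B cells, 1.499 ± 0.398 (adjusted p 0.00887). None was called between NLRP3i and saline, and against young the same 2 genes were called at 2.10 ± 0.40 and 1.11 ± 0.39 (adjusted p 0.000452 and 0.0287), 2 of 9 beside 21.8% of all genes called higher. There Tnfrsf13c was not called without young replicate 1, 2, 3 or 4 or NLRP3i replicate 7 (adjusted p up to 0.0782).

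Of 6 tested genes of class switching and germinal centres, 3 were higher and 1 lower in saline than in young mice. Of all genes tested, 12.2% were called higher and 12.4% lower in that comparison. Mki67, a gene of dividing cells, gave 0.79 ± 0.25, Bcl6, a germinal centre repressor also made elsewhere, 0.62 ± 0.19, and Fas, a death receptor, -0.58 ± 0.13 (adjusted p-values up to 0.0256). Mki67 was not called under limma-voom or without young replicate 1, 3 or 6 or saline replicate 2 or 3 (adjusted p up to 0.0777). Bcl6 was not called without young replicate 1, 3 or 5 or saline replicate 2, 3 or 7 (adjusted p up to 0.0616). None was called between NLRP3i and saline. Against young, Bcl6 (0.76 ± 0.19) and Mki67 (0.69 ± 0.25) were higher and Fas (-0.63 ± 0.13) lower in NLRP3i mice. This was 2 of 6 higher and 1 of 6 lower, beside 21.8% and 16.5% of all genes tested. In that comparison Mki67 was not called without young replicate 1, 3, 5 or 6 or NLRP3i replicate 8 (edgeR adjusted p up to 0.0864). The 2 tested surrogate light chain genes, which mark B cell precursors, were called in no comparison.

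The machinery that folds and secretes antibody is shared with every secretory cell. Of its 11 tested genes, 3 were higher and 1 lower in saline than in young mice, beside 12.2% and 12.4% of all genes tested. The higher genes were Sec11c, of the signal peptidase, at 0.67 ± 0.11 (edgeR adjusted p 0.000226), Ssr4, of the translocon, at 0.56 ± 0.09 (adjusted p 0.000186) and Herpud1 at 0.34 ± 0.09. Dnajb9, a chaperone partner of the endoplasmic reticulum, was lower at -0.44 ± 0.09. Between NLRP3i and saline 6 were higher and 0 lower, beside 11.9% and 4.86% of all genes tested. The 6 were led by Manf at 0.72 ± 0.18, Creld2 at 0.70 ± 0.18, the chaperone Hspa5 at 0.57 ± 0.16 and Pdia6 at 0.40 ± 0.11 (edgeR adjusted p-values up to 0.0213). Hspa5 was not called without saline replicate 6 (adjusted p 0.0573), nor Pdia6 without saline replicate 4 or 6 (adjusted p up to 0.0714). Against young 7 were higher and 1 lower in NLRP3i mice, beside 21.8% and 16.5% of all genes tested. Creld2 led at 0.87 ± 0.19, followed by Manf at 0.86 ± 0.19. In NLRP3i against saline, 7 of 10 proximal tubule markers were higher as well, and their part in these values was not tested.

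Markers of other cell types differed between the groups to varying extents. In saline against young mice 6 of 10 T cell markers and 3 of 10 macrophage and myeloid markers were higher. In the same comparison 14 of 15 podocyte and 8 of 8 endothelial markers were lower, and 0 of 5 tested red blood cell and 0 of 10 proximal tubule markers were called. Of all genes tested, 12.2% were called higher and 12.4% lower there. In NLRP3i against saline 5 of 15 podocyte markers were higher, 1 of 10 T cell markers was lower, and no myeloid, red blood cell or endothelial marker was called. Of all genes, 11.9% were called higher and 4.86% lower. In NLRP3i against young 1 of 10 T cell, 3 of 10 myeloid and 7 of 10 proximal tubule markers were higher, beside 21.8% of all genes. Lower were 14 of 15 podocyte, 8 of 8 endothelial and 1 of 5 red blood cell markers, beside 16.5% of all genes. The part of these differences in the immunoglobulin levels was not tested.

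In NLRP3i replicates 6 and 7, which held the most Ighm, the summed B cell markers stood at 143 and 307 CPM and the plasma cell markers at 265 and 359 CPM. The other 6 libraries ran from 81.7 to 233 CPM for B cell markers, 4 of them above replicate 6, and from 180 to 207 CPM for plasma cell markers. Replicate 8 had the highest T cell sum of the treated mice, at 74.9 CPM, and the highest myeloid sum, at 3997 CPM, while it held the lowest Igha and Jchain. Proximal tubule markers were lowest in replicate 7, at 1995 CPM.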

How the data were processed

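Messenger RNA of nephrin-selected cortex cells was sequenced for 6 young, 7 saline and 8 NLRP3i mice, grouped by their labels. The study gives 5 mice at 4 months, while the labels hold 6 young libraries, and all were used. The authors trimmed reads with Trim Galore, aligned them to mm10 (GRCm38) with Bowtie2 and deposited raw featureCounts counts per gene, which were used here as deposited. The annotation, strand setting and treatment of multiply aligned reads are not given in the sources used here. The table of normalized values, with 20 columns, was not used. Symbols came from RefSeq for 25275 gene numbers and from GENCODE for 18, while 1886 had none.

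Tests of counts used edgeR 4.0.16 under R 4.3.3 (quasi-likelihood F test, TMM, filterByExpr by group, all groups in 1 fit, Benjamini-Hochberg over 16377 genes, adjusted p under 0.05). The standard error is the fold change over the square root of F. DESeq2 1.42.0 and limma-voom (limma 3.58.1) were alternatives, beside other size factors, filters, thinning to 5804891 counts outside the mitochondrial genome, and leaving out each library. Shares and ratios were compared by exact permutation tests in Python 3.11.15 (numpy 2.4.6), with a 0 given a count of 0.5. Relations used log2 of CPM plus 0.1. The workflow was tested on simulated data.

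The members, gene lists and tests were chosen with earlier results of these data known. All 10 members are named. Of the 7 lists of B cells, plasma cells, antibody receptors and carriers, survival and recruitment signals, class switching, surrogate light chains, and folding and secretion, up to 4 called genes per comparison are named by size of fold change, with Cd79a, Ms4a1 and Mzb1 in any case. Some single-gene results are not reported here, while the list counts keep them. The lists of T cells, macrophages and myeloid cells, red blood cells, podocytes, proximal tubule and endothelium are counted. Libraries are of separate mice, and no 2 of a group were duplicates (lowest chi-square per degree of freedom 16.7).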

Additional observations from a re-analysis of the deposited data

Results flagged for a closer look

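Of 63 groups of values examined (10 genes and 11 isotype quantities in 3 groups), 5 held a library far from the others by Dixon's test, which chance alone gives in about 1 of 20 groups. In young libraries, Ighg1 made up 28.4% of IgG reads in replicate 4, beside 5.75% in the next library. Ighg2c made up 63.8% of IgG reads in young replicate 1, beside 15.97% in the next, and Ighg3 made up 56.8% in young replicate 3, beside 14.3%. Young libraries held between 7 and 313 IgG reads. Among NLRP3i libraries, IgG made up 8.23% of heavy chain reads in replicate 1, beside 3.09% in the next, and Ighg1 made up 18.0% of IgG reads in replicate 2, beside 7.77%.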

How the results depend on the processing

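Between 8 and 9 members were called in saline against young under every library left out, and 6 under limma-voom, which no longer called Ighg2c and Ighg3. For NLRP3i against young the count ran from 8 to 9, with 6 under limma-voom. For NLRP3i against saline, 0 members were called except under a replicate block (1, Ighm at -1.63), limma-voom (2) and without NLRP3i replicate 7 (3). Leaving out a library thus gave 0 to 3. The replicate block was fitted without NLRP3i replicate 8, so its values reflect that library's absence as well as the block. The shares of all genes called under these alternative settings are not given here. The labels do not say whether a replicate number is shared between groups. Correlations of same-numbered libraries ran from -0.061 to 0.347, -0.144 to 0.335 and -0.013 to 0.401 in the 3 comparisons. Of the 6, 7 and 6 pairs, 2, 3 and 3 were over 0.1. Libraries of different numbers were not compared, so these values cannot decide whether the numbers pair the mice. The replicate block left the count at 8 for saline against young and 9 for NLRP3i against young.

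The isotype quantities that differed numbered 1 in place of 2 for saline against young per kb of exon, 3 with Iglc2 and Iglc3 counted, and 2 to 3 without single libraries. For NLRP3i against young they numbered 0 per kb, 1 with the median as the statistic, and 0 to 2 without single libraries. The values below belong to results that were not called, and the cause of their changes of sign was not tested. For NLRP3i against saline, Ighg1 gave -0.21 under limma-voom and -0.45 to 0.53 without single libraries. Ighg2c gave -0.80 with the replicate block, -0.87 under limma-voom and -0.48 to 0.25 without single libraries. Cd79a ran from -0.31 to 0.0071. The light to heavy log2 ratio differed by -0.0043 with the median, and the Jchain to heavy ratio by 0.0051 per kb and by -0.16 to 0.0204 without single libraries. For NLRP3i against young, Ighd ran from -0.13 to 0.56 and Ms4a1 from -0.19 to 0.46, with -0.0203 under DESeq2, -0.0118 with RLE size factors and -0.0545 with the replicate block.

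In percentage points, saline against young, the Ighg1 share of IgG ran from -5.23 to 0.45 without single libraries, the Ighg2b share was -5.03 per kb, -0.81 with the median and -4.11 to 6.25 without single libraries, and the Ighg3 share was 1.58 with the median, 3.97 without libraries of under 50 IgG reads and -9.50 to 1.87 without single libraries. For NLRP3i against young, the Ighm share was 4.51 and the Igha share -4.16 with the median, and -6.60 to 3.27 and -1.74 to 8.28 without single libraries. The Ighg1 share was 0.81 with the median and -3.20 to 2.88, the Ighg2b share -7.65 to 2.71, the Ighg3 share 0.67 without libraries of under 50 IgG reads, and the Igkc share 2.19 with Iglc2 and Iglc3 counted. That last setting and the minimum of 50 reads were chosen after seeing the data. IgG shares in young mice are limited by depth.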

Other observations

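Iglc1 was 1 of 3 lambda constant genes in the tables, and its weight among them differed between libraries. Of the reads on Iglc1, Iglc2 and Iglc3, Iglc1 took 8.97% to 51.2% in young libraries (median 34.2%), 33.1% to 54.3% in saline libraries (median 45.8%) and 48.1% to 78.3% in NLRP3i libraries (median 66.2%). With all 3 lambda genes counted, kappa made up 89.5% to 97.3% of light chain reads in young, 95.9% to 97.9% in saline and 93.1% to 96.6% in NLRP3i libraries.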
